A study of Mus musculus with 12 samples.

Results

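The cytotoxic and NK effector genes are 8 genes of killer lymphocytes: Nkg7, Klrd1, Il2rb, Gzma, Gzmb, Prf1, Ifng and Fasl. They were taken by name, with every non-control probe that the array carries for them. This gave 11 of the 24375 probes with a gene symbol, and 8 of 17016 genes. Islet RNA was compared between 6 NOD and 6 NOD.B10 mice, all female, 12 weeks old and with no treatment named. NOD mice develop autoimmune diabetes. NOD.B10 mice have the same genetic background with another major histocompatibility complex haplotype and stay free of diabetes. Islets were cut by laser from stained frozen sections of the pancreas, sections of many islets of a mouse were pooled, and the RNA was amplified before labelling. Each of the 12 arrays held the islet RNA of 1 mouse in Cy5 and a shared mouse reference RNA in Cy3. All values below are log2 ratios of islet over reference unless another scale is named, and a difference is NOD minus NOD.B10. In such bulk RNA, fewer cells of a type and less RNA per cell cannot be told apart.

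Cytotoxic T cells and natural killer (NK) cells kill a target by releasing granules at the contact site. Perforin, the product of Prf1, opens the target's membrane, and granzymes such as those of Gzma and Gzmb enter and cleave proteins that start cell death. A second route is Fas ligand (Fasl), which engages the death receptor Fas on the target. The same lymphocytes secrete interferon gamma (Ifng), which induces chemokines, guanylate-binding proteins and antigen presentation in neighbouring cells. In NOD mice, lymphocytes invade the islets before diabetes begins, and CD8 T cells are known to kill beta cells there.

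The NOD arrays were brighter as a whole in the islet channel, which bears on every member. The scanner software marked Cy5 as well above background at 13.6% ± 2.45 of spots in NOD (SD, n = 6) and 6.06% ± 1.31 in NOD.B10 (SD, n = 6). The ranges, 10.4% to 16.8% and 3.90% to 7.68%, did not overlap (exact two-sided permutation test over 924 assignments, p = 0.00216, the smallest it can give). In the reference channel the share was 45.2% to 52.8%. The arrays lay on 4 slides. Slide 1 held NOD mice 1 and 2, slide 2 held NOD mice 3 and 4 with NOD.B10 mice 1 and 4, slide 3 held mice 5 and 6 of both strains, and slide 4, scanned on another day than the rest, held NOD.B10 mice 2 and 3. The captured tissue carried islet markers in both strains, with Cy5 well above background for 10 to 13 of 18 endocrine genes per NOD array and 11 to 14 per NOD.B10 array. Of 14 acinar genes, 8 to 9 were above background per NOD array and 7 to 14 per NOD.B10 array. Of the 9 tested, 7 were called lower in NOD, against 18.3% of all tested genes. They were led by Cel (-1.61), Amy1 (-4.51) and Zg16 (-1.30, which did not pass with slide in the model). In the islet channel alone Amy1 passed (limma, adjusted p = 0.0171), while Cel and Zg16 did not (0.0933 and 0.298). The mean acinar ratio per array overlapped, at -2.24 to 1.12 in NOD and -0.06 to 5.29 in NOD.B10. Of the endocrine genes 14 were tested and 6 called lower, against the same 18.3%, led by Ins2 (-3.35), Slc2a2 (-2.58) and Chga (-2.56). In Cy5 alone, quantile normalised, these were -0.65, -1.68 and -0.92, and Chga did not pass (limma, adjusted p = 0.0986). With arrays centred on their median instead of corrected by loess, 0 of 3920 genes were called lower in NOD. Summed net Cy5 of the endocrine list overlapped, at 32540 to 65176 units in NOD and 26425 to 61483 in NOD.B10.

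Transcripts of the granule gene Nkg7, by its brighter probe, and of the NK receptor gene Klrd1 were higher in NOD islets. The cytokine receptor gene Il2rb was also called higher, but that call was lost under another normalisation and with slide in the model. None of the 8 genes was well above background on any NOD.B10 array. A probe counts as above background on an array when a share of at least 0.5 of its spots carries the scanner's mark. By that rule Nkg7 was above background on 6 of 6 NOD arrays, Klrd1 on 5, Il2rb on 4, Gzmb on 3 and Ifng on 2. Gzma, Prf1 and Fasl were above background on none in either strain. Per mouse, 5, 5, 1, 3, 2 and 4 of the 8 genes were above background in NOD mice 1 to 6. NOD mice 3 and 5, at the low end here, also had the lowest overall brightness.

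Nkg7, Klrd1 and Il2rb passed the filter for testing, which asked for Cy5 above background on at least 4 of 12 arrays. All 3 were called higher in NOD by limma's moderated test (adjusted p under 0.05 over 3920 genes). Among all 3920 tested genes, 18.7% were called higher and 18.3% lower. In all 3 every NOD value lay above every NOD.B10 value, which held for 9.46% of tested genes. Genes that are dark in NOD.B10 could pass this filter only through NOD. They made up 31% of tested genes (1217), and 28.7% of these were called higher. The 5 other members missed the filter and were examined in a fit over all 24375 named probes.

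Nkg7 encodes a membrane protein of cytotoxic granules that takes part in their release. Its brighter probe had log2 ratios of 0.68 at the lowest, 2.03 at the median and 3.41 at the highest in NOD. In NOD.B10 they ran from -0.33 over a median of -0.21 to 0.12. Every NOD mouse lay above every NOD.B10 mouse, with NOD mice 1 and 2 highest and NOD mice 5 and 3 (0.68 and 1.00) lowest. The difference was 2.16 (SE 0.39, limma, adjusted p = 0.00107). On the scale of net Cy5 signal, in scanner units after subtraction of local background, NOD ran from 24 to 247 with a median of 91, and NOD.B10 from -4.50 to 5.50. The net reference signal was 233 to 309.5 on NOD and 220 to 291 on NOD.B10 arrays, ranges that overlapped. Since no NOD.B10 array measured Nkg7, its fold is a bound: at least 2.47-fold higher in NOD, with each dark NOD.B10 value set no lower than the 10th percentile of signals above background. This bound was taken on Cy5 values after loess and between-array scaling, without swapped dyes, and is open to dye bias. It holds on that scale only: with Cy5 alone, quantile normalised, the fitted difference was 0.97, which is below the bound. A second Nkg7 probe showed no such difference: it was above background on none of the 12 arrays in Cy5 and differed by 0.12 (SE 0.11, limma, adjusted p = 0.675).

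Klrd1 encodes CD94, which pairs with NKG2 receptors on NK cells and some CD8 T cells. NOD log2 ratios were 0.32 at the lowest, 2.07 at the median and 2.21 at the highest. NOD.B10 values ran from -0.31 over -0.14 to -0.01. The groups did not overlap, and the NOD mice split into 4 between 2.03 and 2.21 and a low pair, mice 3 and 5, at 0.32 and 0.53. The difference was 1.72 (SE 0.33, limma, adjusted p = 0.00152), at least 1.52-fold on the scale described for Nkg7. Net Cy5 signal ran from 11 to 132 in NOD and from -4.50 to 2 in NOD.B10. Over the 6 NOD mice, Klrd1 and Nkg7 ratios had a Pearson correlation of 0.85, a description over arrays that also share their brightness.

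Il2rb encodes the beta chain that the IL-2 and IL-15 receptors share, through which IL-15 sustains NK and memory CD8 T cells. Its NOD log2 ratios were small: 0.15 at the lowest, 0.33 at the median and 0.71 at the highest. In NOD.B10 they ran from -0.30 over -0.05 to 0.06. NOD mouse 2 was highest and NOD mouse 5 lowest, and the groups did not overlap. The difference was 0.47 (SE 0.11, limma, adjusted p = 0.0068), but it turned to -0.14 relative to the median tested gene when arrays were centred on their median instead of corrected by loess. With that centring the median gene itself lay 0.44 higher in NOD, and values of tested genes under it are given relative to that. The Il2rb call was lost there (limma, adjusted p = 0.0693). That p belongs to the difference as fitted, which was positive, before the median gene was taken off. Net Cy5 signal was 7 to 20 in NOD and -4.50 to 3.50 in NOD.B10, too close to background for a bound above 1-fold.

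**Figure D1:**
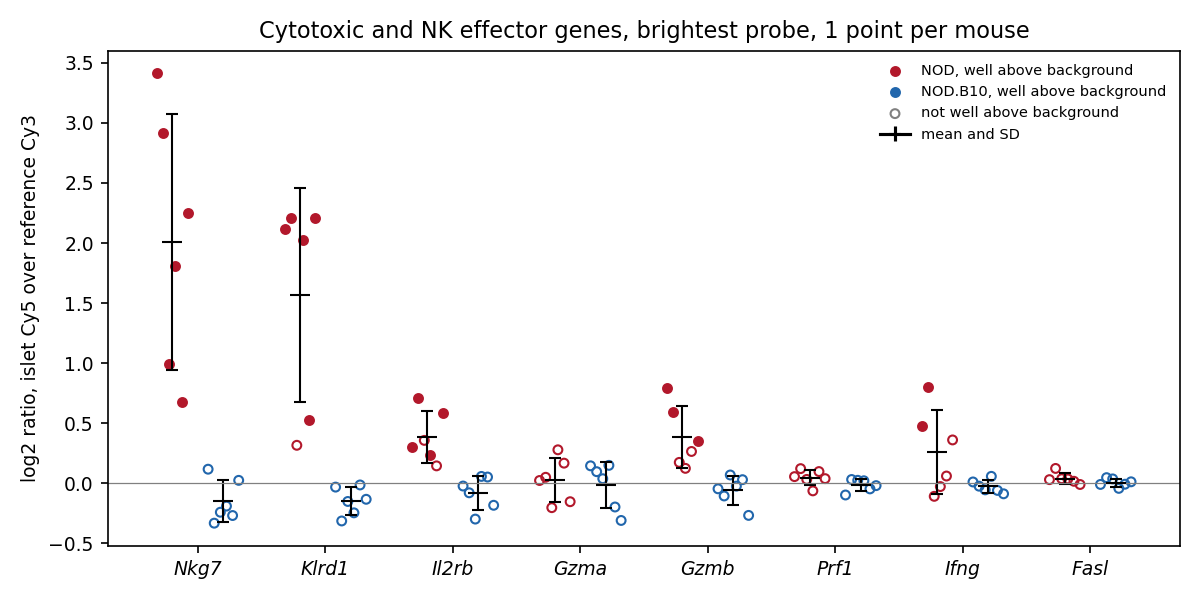
Log2 ratio of islet (Cy5) over reference (Cy3) for the brightest probe of each of the 8 genes, with 1 point per mouse, 6 NOD and 6 NOD.B10, with the mean and SD of each group in black; filled points are well above background in Cy5 and open points are not. Filled points occur only in NOD, and Nkg7 and Klrd1 stand clear of all NOD.B10 points, while Il2rb, which turns to -0.14 relative to the median gene with median centring, lies close to them.

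Gzmb encodes granzyme B, a granule protease that cleaves caspases in the target. Cy5 was above background in NOD mice 1, 2 and 6, which is 1 array short of the filter. NOD log2 ratios were 0.13 at the lowest, 0.31 at the median and 0.79 at the highest. NOD.B10 ratios ran from -0.27 over -0.03 to 0.07. No NOD.B10 mouse reached any NOD mouse, and the fit over all named probes gave a difference of 0.44 (SE 0.11, limma, adjusted p = 0.0193; exact two-sided permutation p = 0.00216). In that fit 4 of the 11 member probes were called higher, for Nkg7, Klrd1, Il2rb and Gzmb, against 2.97% of all named probes, and 0 were called lower, against 6.19% (also 0 at an unadjusted p under 0.05). The same 4 probes had every NOD value above every NOD.B10 value, which held for 1.83% of named probes. The Gzmb call was lost when slide was a term of the model (0.30, adjusted p = 0.102) and when slide 4 was left out (0.46, adjusted p = 0.065). It was also lost with median centring (adjusted p = 0.0962), where the difference was 0.39 as fitted over all named probes. Their median lay at 0.0134 there, a baseline other than that of the tested genes, so this value does not compare with that of Il2rb.

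The sequences just before the starts of Nkg7 and Gzmb are shown because these were the granule members whose NOD and NOD.B10 values did not overlap. Each is 250 bases, 5′ to 3′ on the gene's strand, from RefSeq on GRCm38.p6, which is not the build of the array's own annotation. Capitals mark matches to 3 short motifs of factors known in cytotoxic lymphocytes: the RUNX motif TGTGGT, the T-box motif AGGTGTGA and the STAT motif TTCNNNGAA, each searched on both strands.
Nkg7, chr7:43436888-43437137, plus strand: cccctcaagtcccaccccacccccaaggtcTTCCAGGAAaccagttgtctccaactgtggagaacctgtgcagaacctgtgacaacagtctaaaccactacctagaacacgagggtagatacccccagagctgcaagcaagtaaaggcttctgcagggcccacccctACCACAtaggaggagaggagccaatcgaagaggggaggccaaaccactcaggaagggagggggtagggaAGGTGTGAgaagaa
Gzmb, chr14:56262335-56262584, minus strand: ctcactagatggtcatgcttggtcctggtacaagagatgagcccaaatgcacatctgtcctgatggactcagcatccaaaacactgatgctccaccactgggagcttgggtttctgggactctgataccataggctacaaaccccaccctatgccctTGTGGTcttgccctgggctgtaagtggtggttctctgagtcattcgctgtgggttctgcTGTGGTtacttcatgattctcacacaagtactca
In Nkg7 the STAT match lay 220 to 212 bases before the start, the RUNX match, on the other strand, at 83 to 78 and the T-box match at 14 to 7. Gzmb held RUNX matches at 93 to 88 and at 34 to 29. Of the 8 genes 6 were matched to a promoter entry, and the RUNX motif was in 4 of these (Nkg7, Prf1, Gzma and Gzmb), against 14.05% of 32851 promoters of the same length. The T-box motif was in 1 (Nkg7), against 1.12%, and the STAT motif in 2 (Nkg7 and Ifng), against 7.02%. A match is a run of letters and does not show that a factor binds there.

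Ifng encodes interferon gamma. Of its 2 probes 1 was above background in NOD mice 1 and 2, which share slide 1, at log2 ratios of 0.47 and 0.80. The NOD median was 0.21 and the lowest value -0.11, while NOD.B10 ran from -0.09 to 0.06, so the groups overlapped. The difference of 0.29 (SE 0.13) did not pass (limma over all named probes, adjusted p = 0.259; exact two-sided permutation p = 0.0931). It did pass in the scanner software's own ratios (3.03, adjusted p = 0.0345) and in the deposited series table (3.10, adjusted p = 0.0185). Within slide 2 it was -0.10 and within slide 3 it was 0.28. The other Ifng probe is spotted 10 times on each array and was above background at 0 of 120 spots, with a difference of -0.0046 (limma, adjusted p = 0.978). Neither Ifng probe was above background for the reference RNA on any array.

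Gzma, the gene of granzyme A, a tryptase-like granule protease, gave NOD ratios from -0.20 over 0.04 to 0.28 and NOD.B10 ratios from -0.31 over 0.07 to 0.15. The ranges overlapped almost throughout, and the difference was 0.04 (limma, adjusted p = 0.916; exact two-sided permutation p = 0.699). Prf1, the gene of perforin, gave NOD ratios from -0.06 to 0.12 and NOD.B10 ratios from -0.10 to 0.03, a difference of 0.06 (limma, adjusted p = 0.565; exact two-sided permutation p = 0.0996). Its probe was not above background for the reference RNA either on any of the 12 arrays. Fasl had 2 probes, 1 of them spotted 10 times. The first differed by 0.03 (limma, adjusted p = 0.771) with 1 of its 120 spots above background, and the second by -0.08 (limma, adjusted p = 0.531). Neither Fasl probe was above background for the reference RNA on any array, while the Gzma probe was on 10 of the 12. For Gzma, Prf1 and Fasl a difference was not detectable at this signal, which does not show that the strains were alike.

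**Figure D2:**
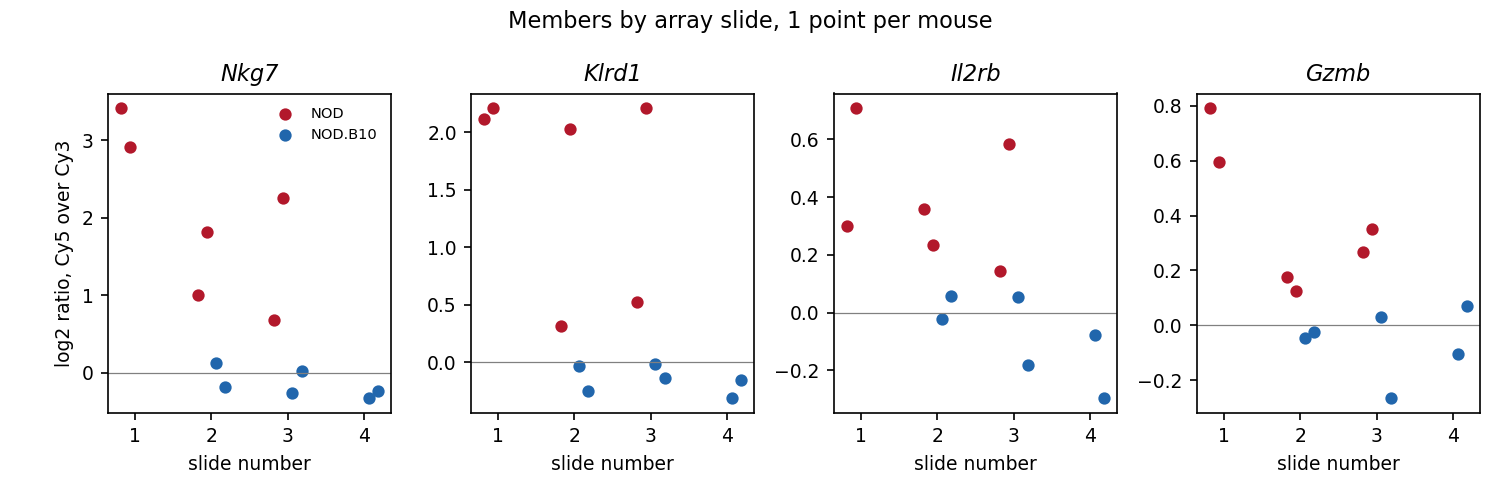
Log2 ratio of islet over reference for Nkg7, Klrd1, Il2rb and Gzmb by slide (x axis), with 1 point per mouse and the strains in separate colours. Slides 2 and 3 hold both strains, and the NOD mean lies above the NOD.B10 mean there for the 4 genes, for Nkg7 by 1.44 and 1.59; Il2rb turns to -0.14 relative to the median gene with median centring.

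On the slides that held both strains, the direction of the 4 leading members stayed. Nkg7 differed by 1.44 on slide 2 and 1.59 on slide 3, and Klrd1 by 1.31 and 1.44. Il2rb differed by 0.28 and 0.43, and Gzmb by 0.18 and 0.43. With 2 mice of each strain on a slide none of these passed (limma within the slide, smallest adjusted p = 0.0998, for Nkg7 on slide 2). In a model that took slide as a term, Nkg7 (1.51, limma, adjusted p = 0.00819) and Klrd1 (1.38, adjusted p = 0.0328) were called and Il2rb was not (0.35, adjusted p = 0.119). The NOD mice of slide 1 had the highest Nkg7, with a mean of 3.16 against 1.44 for the other 4 NOD mice, and without slide 1 the difference was 1.58 (adjusted p = 0.00196).

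Nkg7 ran with brightness inside the NOD group as well as between strains, and other members less closely. Ordered by share of spots above background, the NOD mice ran 2, 1, 6, 4, 3, 5, and ordered by Nkg7 they ran 1, 2, 6, 4, 3, 5. By Klrd1 the order was 6, 2, 1, 4, 5, 3 and by Il2rb 2, 6, 3, 1, 4, 5. With that share as a covariate, the differences were -0.16 for Nkg7, 0.02 for Klrd1 and 0.02 for Il2rb (limma, lowest adjusted p = 0.966), and 3 genes in all were called higher. The share does not overlap between strains, so strain and brightness cannot be told apart by this fit.

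**Figure D3:**
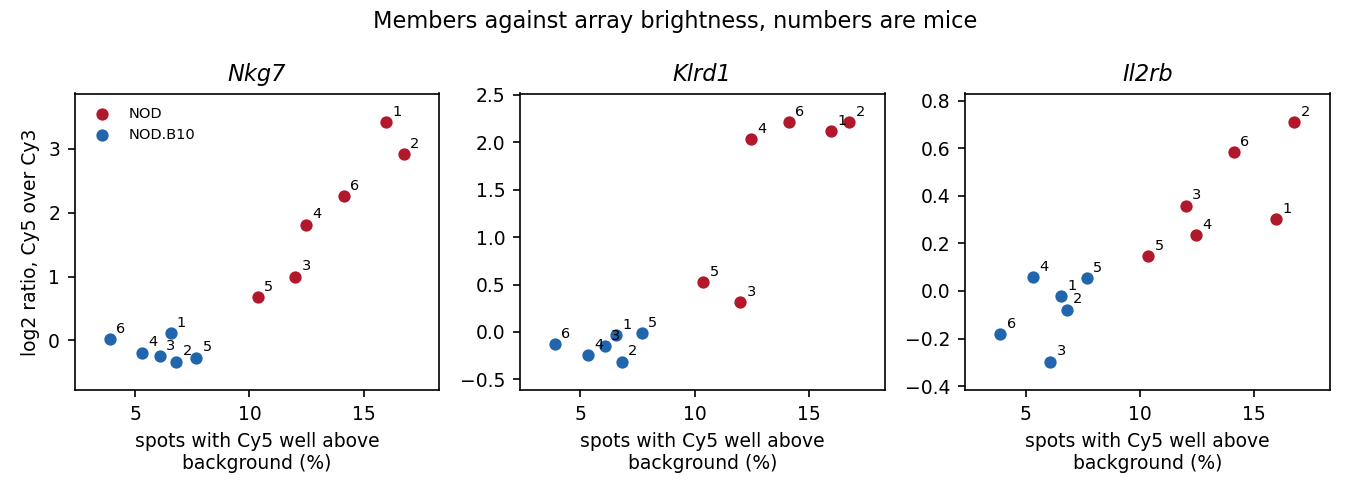
Log2 ratio of islet over reference for Nkg7, Klrd1 and Il2rb (y axis) against the percent of spots with Cy5 well above background on the same array (x axis), 1 point per mouse, numbered by replicate. NOD arrays lie between 10.4% and 16.8% and NOD.B10 arrays between 3.90% and 7.68%, and Nkg7 is lowest among NOD on the dimmest NOD array; the Il2rb gap turns to -0.14 relative to the median gene with median centring.

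The size of the member differences also depended on background correction and scaling. Nkg7 differed by 3.44 with an offset of 10 in place of 50, and by 4.84 relative to the median gene in the scanner software's own ratios, where the median gene lay 0.48 higher in NOD. It differed by 1.02 relative to the median gene with median centring and by 0.97 in Cy5 alone. Klrd1 differed by 3.10, 4.48, 0.62 and 0.71 in the same settings. Under each of these settings Nkg7 and Klrd1 remained higher in NOD.

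Genes of the lists that follow are given by their log2 difference, with no fold where no NOD.B10 array measured them. These sizes also depended on the scaling: all 61 called genes in the lists beside the members had a difference of smaller absolute size in Cy5 alone. That count disregards sign, and some signs turned, among them that of Gcg, from -1.19 to 0.71 in Cy5 alone. Each count of genes called higher stands beside 18.7% of all tested genes. Among tested genes dark in NOD.B10, which could pass the filter only through NOD, that share was 28.7%. Other genes of the granule pathway were mostly too dim to test. Of 20 further granule and exocytosis genes on the array, 5 were tested and 3 were called higher. Srgn, the serglycin core protein that packs granule contents and is made by many blood cells, differed by 3.56 (SE 0.32, limma, adjusted p = 1.31e-05), an 11.8-fold rise, and by 2.16 in Cy5 alone. Ctsc, the cathepsin that activates granzymes, differed by 0.88 (adjusted p = 0.00593), and the serpin gene Serpinb6b by 1.16 (adjusted p = 0.0179). Neither Ctsc nor Serpinb6b passed in the model with slide. In this list 14 genes were above background on no array, among them Gzmc, Gzmk, Rab27a and Unc13d.

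The NK and killer lectin receptor list had 21 genes on the array, of 24 listed. Of the 21, 14 were above background on no array, among them Klrk1, Ncr1 and Klrb1c. The 3 that were tested, all dark in NOD.B10, were called higher. Klrc2, an NKG2 partner of CD94, differed by 0.97 (limma, adjusted p = 0.00178). Klra7, a Ly49 receptor, differed by 0.83 (adjusted p = 0.000383) and Hcst, the DAP10 adaptor, by 0.65 (adjusted p = 0.00817). Relative to the median gene, Klra7 and Hcst were at -0.04 each with median centring, and Hcst did not pass in the model with slide. Since Ly49 receptors are a family of near-identical genes, a Klra7 probe may read several of them.

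In the IL-2 and IL-15 receptor list, 5 of 12 genes were tested and 3 were called higher: Jak1, Bcl2 and Socs1. Jak1, a kinase of the receptors, differed by 1.42 (limma, adjusted p = 0.00196), but by 0.58 in Cy5 alone and by 0.43 relative to the median gene in the scanner's ratios. Bcl2, a survival gene, differed by 0.80 (adjusted p = 0.0012) and Socs1, a feedback inhibitor, by 0.67 (adjusted p = 0.000962), which turned to -0.15 relative to the median gene with median centring. Il2, Il15, Il2ra, Il2rg and Il15ra were above background on no array. Of 10 regulators of cytotoxic lineages, 4 were tested and 3 called higher. Id2, which NK cell development needs, differed by 1.31 (adjusted p = 0.00331), Stat4, which relays IL-12, by 0.71 (adjusted p = 0.0103) and Prdm1, which drives terminal effector differentiation, by 0.59 (adjusted p = 0.00618). Id2 and Stat4 did not pass in the model with slide, and Prdm1 was at -0.04 relative to the median gene with median centring. Eomes and Runx3 were above background on no array, and Tbx21 (T-bet) on 1 NOD array.

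Genes that signal for or respond to interferon gamma were above background more widely than Ifng itself, 9 to 13 of 18 per NOD array and 1 to 3 per NOD.B10 array. All 10 that were tested were called higher, against 18.7% of all tested genes. Of these 10, 7 were dark on every NOD.B10 array and could pass the filter only through NOD. Their median difference was 2.06 over the 10, against -0.0079 over all 3920 genes, a comparison that the filter tilts towards NOD. Cxcl10, a chemokine for T and NK cells, differed by 2.63 (SE 0.30, limma, adjusted p = 6.10e-05) and by 1.19 in Cy5 alone. The GTPase genes Igtp and Gbp2 differed by 2.28 and 2.20, and by 1.38 and 0.99 in Cy5 alone. Irf8 was at -0.03 relative to the median gene with median centring, and Irf8 and Il18r1 did not pass in the model with slide. Of 15 effector chemokines and homing receptors, 6 were tested, all 6 dark in NOD.B10, and all 6 were called higher. The differences were 2.51 for Ccl5 (limma, adjusted p = 0.000281), 1.15 for Cxcr6 and 0.75 for Cd44. Cxcr3 did not pass in the model with slide.

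Death receptor genes gave little to set beside Fasl. Of the 14 genes on this list, Cflar, which restrains caspase activation at death receptors, and Tnfrsf1a, a receptor of tumour necrosis factor, were tested and did not pass, at 0.17 and 0.04 (limma, adjusted p = 0.358 and 0.703). Fas, the receptor of Fas ligand, was above background on 1 NOD array.

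**Figure D4:**
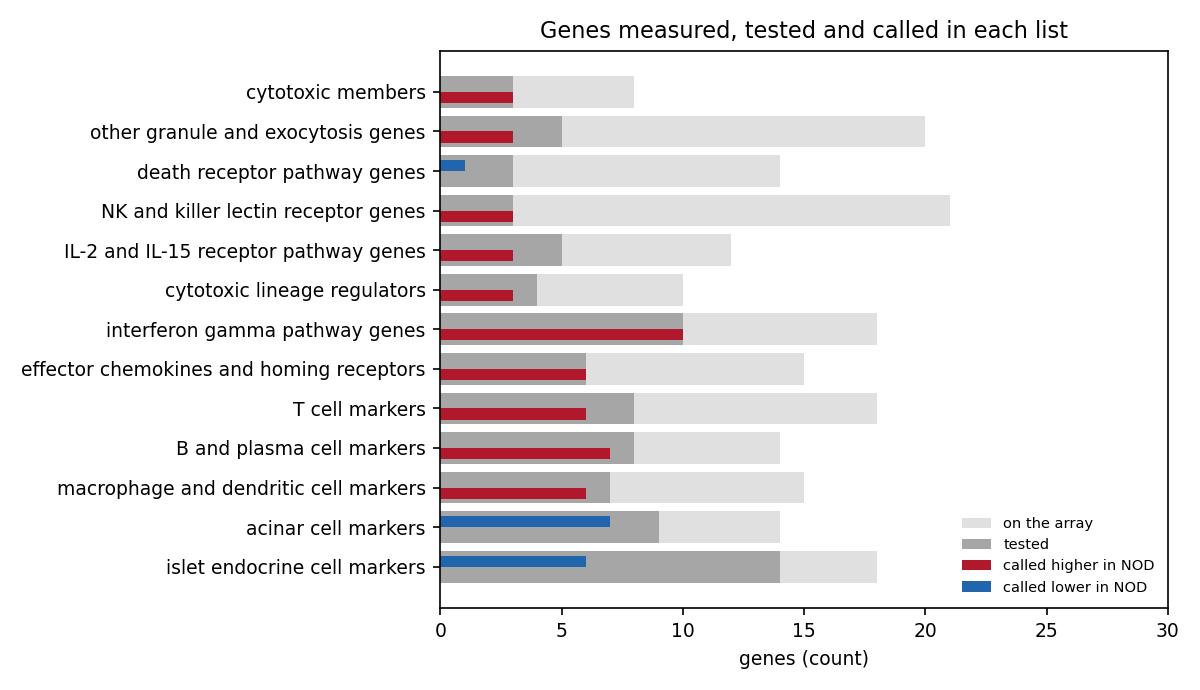
Number of genes (x axis) in each gene list, with overlaid bars for genes on the array, genes tested, and genes called higher or lower in NOD. In the granule list 5 of 20 genes and in the NK receptor list 3 of 21 were tested. All 10 tested interferon gamma pathway genes were called higher, 7 of them dark in NOD.B10. Taken relative to the median gene, some called genes change sign with median centring. Among them are Klra7, Hcst, Socs1, Prdm1, Irf8, Itgax, Bank1, Il2rb, Gcg and Pcsk2. As fitted there, 0 genes were called lower. Klra7, Irf8, Bank1 and Itgax were still called higher in that fit (limma, adjusted p = 0.0177, 0.0291, 0.0125 and 0.0491). Gcg, called lower in the main fit, was called higher in that fit (limma, adjusted p = 0.000104).

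Markers of other leukocytes moved with the members, and their part in the result was not tested. Of 18 T cell markers 8 were tested and 6 called higher. Ms4a4b differed by 3.48 (1.63 in Cy5 alone) and Il7r, the IL-7 receptor chain, by 3.06 (1.39), while Cd3d, a CD3 subunit, differed by 1.13 (limma, adjusted p = 0.00219). Cd8a, the co-receptor of cytotoxic T cells, differed by 1.03 (adjusted p = 0.00993) and did not pass in the model with slide. Summed net Cy5 of the T cell list ran from 228 to 1464 units in NOD and from 6.13 to 59.6 in NOD.B10, and 4 to 10 and 0 to 1 of the genes were above background per array. Cd3e, Cd3g, Cd4 and Lck were above background on none.

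B and plasma cell markers moved too, with 7 of 8 tested of 14 called higher, led by Jchain (3.61, and 2.31 in Cy5 alone), Pou2af1 (2.78 and 1.69) and Ms4a1 (3.49 and 2.04). Their summed net Cy5 was 420 to 3155 units in NOD and 14.4 to 23.4 in NOD.B10, with 4 to 9 and 0 genes above background per array. Cd79a, Cd22 and Pax5 were above background on none. Of 15 macrophage and dendritic cell markers, 6 of 7 tested were called higher, led by Lyz2 (4.05, and 2.95 in Cy5 alone), Ctss (4.30 and 2.70) and Mpeg1 (2.16 and 1.20). These summed to 1171 to 7873 units in NOD and 71.5 to 152 in NOD.B10, with 5 to 9 and 1 to 4 genes above background, and Itgam, C1qa and Cd14 on no array.

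The genes whose ratios ran most like a member's were found by Pearson correlation over the 12 arrays, given as a description since all points share the reference and the strain gap. For Nkg7 these were Osmr (0.989), the oncostatin M receptor, Spn (0.985), the leukocyte sialoprotein CD43, Pla2g2d (0.984), Chsy1 (0.983) and Myo1g (0.981). Within the 6 NOD arrays the same correlations were 0.988, 0.975, 0.982, 0.979 and 0.948. For Klrd1 they were Map4k1 (0.988), a kinase of blood cells, Vcam1 (0.987), an adhesion molecule, Bcl2 (0.984), Gpr183 (0.981) and Gmfg (0.981). For Il2rb they were Ctps2 (0.964), Ifitm1 (0.941), Sf3b6 (0.934), Ly86 (0.930) and M6pr (0.929).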

How the data were processed

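Median signal intensity and median local background of both channels were deposited by the authors for each array without normalisation. Per the file headers, Feature Extraction 10.5.1.1 read them. The deposited processed intensities and the log10 ratio were made by the authors' software with background subtraction and dye normalisation, per the file headers. The deposited series table holds log2 ratios of these processed signals, as all 40929 single-spot probes showed. Other deposited columns are quality marks for background and outlier spots.

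Background was corrected by normexp (offset 50) and dye bias by loess in limma 3.58.1 under R 4.3.3, control spots having weight 0. Probe accessions gave 24375 probes a RefSeq symbol. Testing required a Cy5 mark well above background on 4 or more of 12 arrays, and the brightest such probe stood for its gene (3920 genes). Strains were compared with lmFit and eBayes and Benjamini-Hochberg adjustment at 0.05, and the code was tested on simulated data. Single probes had an exact two-sided permutation test. No spot was saturated. Arrays hold no counts, so their number and the signal over background limit precision. P-values measure the spread between the mice, 1 array each.

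Replicate numbers are not said to pair mice of the strains, and the main fit did not pair them. The correlation of deviations between mice of the same number ran from -0.145 to 0.21, which cannot exclude a pairing. Named were all 8 members, the 3 called genes of each list with the smallest adjusted p, and the 5 genes most correlated with each tested member, except 1 list gene that is not reported here; other gene names were chosen after their values were seen. Members and lists were chosen with earlier results of these data known. Alternatives covered background correction, normalisation, offset, filter, slides, single mice, weights and brightness.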

Additional observations from a re-analysis of the deposited data

Results flagged for a closer look

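One of the 22 groups of 6 member values held a mouse far from the rest: for the Fasl probe spotted 10 times, NOD mouse 2 had a log2 ratio of 0.12 while the nearest NOD mouse had 0.039, a gap of 0.642 of the group's range. Chance gives such a gap in about 1 of 20 groups, and the probe was not well above background on that array.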

How the results depend on the processing

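The 3 members called higher in NOD became 1 with Cy5 above background required on at least 6 arrays, where only Nkg7 was tested, 2 with median centring and with a fixed slide term, where Il2rb did not pass, and 0 within slide 2, within slide 3 and with the share of spots above background as a covariate (limma; at an unadjusted p under 0.05, 1, 1 and 0). Leaving out single mice kept 3. The 734 genes called higher became 1982 with median centring, 362 with a fixed slide term, 46 within slide 2, 1 within slide 3, 482 without slide 1 and 3 with the covariate, and ran from 603 to 848 without single mice. Genes called higher made up 50.6% of calls, against 77.7% in the scanner's ratios, 76.7% in Cy5 alone and 100% with median centring. Of the member probes that missed the filter, the 1 called (Gzmb) became 2, with Ifng, in the scanner's ratios and in the series table, and 0 with the fixed slide term, median centring, within slide 2, within slide 3, without slide 4, with the replicate block and with the covariate (limma; at an unadjusted p under 0.05, 1, 1, 0, 1, 1, 2 and 0). With the replicate block Gzmb had an adjusted p of 0.0507, the 3 members stayed called and 637 genes were called higher. Signs turned for Il2rb (-0.14 relative to the median gene, median centring), Gzma (as fitted, -0.34 in the scanner's ratios and the series table, -0.11 with median centring and within slide 2, and without single mice from -0.019 (NOD.B10 mouse 6) and -0.010 (NOD mouse 4) to 0.086) and Ifng (-0.10 within slide 2). With the covariate Nkg7 was -0.16, Gzmb -0.18, Ifng -0.47 and Fasl -0.030. The causes were not tested. Signals close to background, in 8 of 8 members in NOD.B10, limit what can be measured there.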
